A study of Homo sapiens with 2 samples.

Results

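The genes described here are the 10 zinc finger genes with ZNF symbols among the 243 transcript clusters of a deposited microarray table: ZNF441, ZNF844, ZNF567, ZNF568, ZNF699, ZNF461, ZNF780B, ZNF235 and ZNF285, all coded to chromosome 19, and ZNF831, coded to chromosome 20. They were selected by their symbol, from the clusters that the platform annotates to exactly 1 gene (220 of the 243). They were also selected on the measured difference between the arrays, because every cluster in the table differs by at least 1.0 on the log2 scale, that is by at least 2-fold. Of the 10, 9 were brighter with the miR-138 mimic and 1, ZNF831, was dimmer.

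The study profiled H1299, a widely used human line derived from a non-small cell lung cancer, with 1 array for cells given a miR-138 mimic and 1 array for cells given a negative control (NC) mimic, at 48 h. A mimic is a synthetic duplex that supplies a mature microRNA. Both cultures were kept in medium with 10% serum and were transfected by lipofection at 70% confluence, so the transfection itself was common to both groups. The array reports a log2 signal for each transcript cluster, the set of probes assigned to a gene. With 1 array per mimic there is no replicate spread, so no value below has an error and no test was made. The defining markers of lung epithelial lines and of other cell types that were looked for (4 and 6 symbols) are not among the clusters of the table, so the labelled cell type was not checked.

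The supplied microRNA is named miR-138 by the labels, which do not give the arm. RefSeq (GRCh38.p14) places its 5p form in MIR138-1, at chr3:44114234-44114256 on the plus strand, and in MIR138-2, at chr16:56858527-56858549 on the plus strand, with the same 23 bases in both. It is shown because a microRNA acts through its seed (bases 2 to 8, in capitals), which pairs with target transcripts and usually lowers them.
hsa-miR-138-5p: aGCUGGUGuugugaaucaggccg

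Genes named ZNF encode proteins with zinc fingers, most often of the C2H2 type, in which paired cysteines and histidines hold a zinc ion and the finger reads a few bases of DNA. The large clusters on human chromosome 19 arose by repeated local duplication, and most of their genes encode a KRAB domain beside the fingers. The KRAB domain recruits the corepressor TRIM28, which brings in histone methylation, and many of these proteins are known for binding and silencing transposable elements. Their transcripts are generally present at low levels. Because the genes are close relatives, array probes of 1 gene may detect another, and the part of such shared detection in the values below was not tested.

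In the RefSeq gene table, 250 of 518 protein-coding genes with ZNF symbols lie on chromosome 19 (48.3%), and the 9 members there are 3.60% of those 250. All 9 have at least 1 ZNF gene as an immediate protein-coding neighbour, and 8 have ZNF genes on both sides. Along the chromosome they fall in the order ZNF699, ZNF441, ZNF844, ZNF461, ZNF567, ZNF568, ZNF780B, ZNF235 and ZNF285. ZNF461 and ZNF567 are direct neighbours, ZNF235 and ZNF285 are separated by ZNF112 alone, and 4 genes separate ZNF567 from ZNF568, all 4 with ZNF symbols. Between ZNF441 and ZNF844 lie 8 genes, all 8 with ZNF symbols and none of them in the deposited table. Genes outside the table were not analysed here.

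The start-site windows of the members are shown first, as a feature read from the genome sequence and not from the arrays. The genes themselves entered through the array difference, so the windows are no separate support for the group. RefSeq windows (GRCh38.p14, 250 bases before each annotated start and 50 from the start on) were matched by symbol for 9 of the 10 members, with 2 windows for ZNF567, 10 windows in all. No window was found for ZNF831, so the motif counts cover only the 9 chromosome 19 members, all brighter with the miR-138 mimic. Motifs were picked after the windows were read, were searched on both strands, and are descriptions of letters, not of bound factors. Because of that choice, the shares set beside any motif below, the octamer and the NRF1-type core included, support nothing about the members. No matches of different motifs overlapped in these windows.

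The motif TTCCCAGA was present in the windows of 5 of the 9 genes, ZNF461, ZNF567, ZNF568, ZNF780B and ZNF235, the last with 2 matches. It resembles the core of the element recognised by the zinc finger activator ZNF143. Across all 35116 RefSeq windows 2.75% hold it, and so do 16.2% of the 297 windows of other chromosome 19 ZNF genes. In all 5 genes the letters GGACT stand 4 bases before it. That longer element is GGACT and TTCCCAGA with any 4 bases between. It is in 61 of the 35116 windows (0.174%), of which 5 belong to members and 27 to other chromosome 19 ZNF genes (9.09% of their windows). The element was spelled from the members' own matches. Its presence in them was therefore fixed in advance, and the shares support nothing about the members. ZNF461 and ZNF567 hold the same single match, which is counted in both windows. The stretches below are read on the strand that spells the motif, which stands in capitals, and they lie upstream of the annotated starts. They come from chr19:36666838-36666885 (minus strand) for ZNF461 and ZNF567, chr19:36916082-36916115 (minus strand) for ZNF568, chr19:40056232-40056279 (minus strand) for ZNF780B, and chr19:44305087-44305134 and chr19:44305032-44305079 (plus strand) for ZNF235.
ZNF461 and ZNF567: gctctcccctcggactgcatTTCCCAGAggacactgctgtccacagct
ZNF568: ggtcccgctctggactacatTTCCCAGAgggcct
ZNF780B: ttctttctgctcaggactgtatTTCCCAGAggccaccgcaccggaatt
ZNF235, farther from the start: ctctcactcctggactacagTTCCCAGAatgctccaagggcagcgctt
ZNF235, nearer to the start: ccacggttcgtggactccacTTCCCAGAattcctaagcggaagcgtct

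ZNF461 and ZNF567 share their match because they are transcribed away from each other. The upstream start of ZNF567 (plus strand) and the start of ZNF461 (minus strand) are separated by the 96 bases at chr19:36666838-36666933, printed here on the plus strand with the motif, in its reverse complement, in capitals.
ZNF461 to ZNF567: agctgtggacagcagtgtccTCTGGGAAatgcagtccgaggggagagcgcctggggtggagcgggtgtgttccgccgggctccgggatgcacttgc

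The downstream start of ZNF567 has a relative of the same element. It shares its longest run of identical bases among non-overlapping windows with ZNF568, 16 bases at chr19:36687489-36687504 and chr19:36916090-36916105, both on the plus strand. Over the 44 pairs of windows compared, the longest shared run had a median of 9.5 bases (range 7 to 16).
ZNF567 (downstream start) and ZNF568: TGGGAAATGTAGTCCA

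ZNF441 and ZNF844, which lie in the same cluster, carry another element. Their windows both hold ATGCAAAT, the octamer recognised by POU-domain factors. It lies within the stretches printed below, chr19:11766791-11766838 for ZNF441 and chr19:12064500-12064547 for ZNF844 (plus strand). It is in 1.77% of all windows and in 3.37% of those of other chromosome 19 ZNF genes. Both windows also hold CCAATC, which the NF-Y complex is known to favour, found in 15.1% of all windows and 28.6% of those of other chromosome 19 ZNF genes. No other member window holds either motif.
ZNF441: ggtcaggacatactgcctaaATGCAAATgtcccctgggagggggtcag
ZNF844: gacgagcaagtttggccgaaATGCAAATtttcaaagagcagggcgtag

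ZNF699, ZNF285 and the downstream start of ZNF567 hold GCATGCGC, the core of the palindrome recognised by NRF1, which overlaps its own match on the opposite strand. It is in 3.05% of all windows and 3.70% of those of other chromosome 19 ZNF genes. The match of ZNF285 lies just before its start, within the stretch printed below, chr19:44401609-44401656 (plus strand). CCGGAAG, an ETS-type core found in 10.3% of all windows and 40.7% of those of other chromosome 19 ZNF genes, is in the windows of ZNF461, ZNF567 and ZNF568. The matches of ZNF461 and ZNF567 are the same bases, counted in both of their overlapping windows. GGGCGG, the GC box, is in 4 of the 10 windows, against 45.0% of all windows and 65.0% of those of other chromosome 19 ZNF genes. TATAAA is in none of the 10, against 11.5% of all windows and 3.03% of those of other chromosome 19 ZNF genes. The G and C content of the members had a median of 59.2% over the 10 windows, against 58.7% over all windows and 60.7% over those of other chromosome 19 ZNF genes.
ZNF285: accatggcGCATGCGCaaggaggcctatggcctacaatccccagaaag

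**Figure D1:**
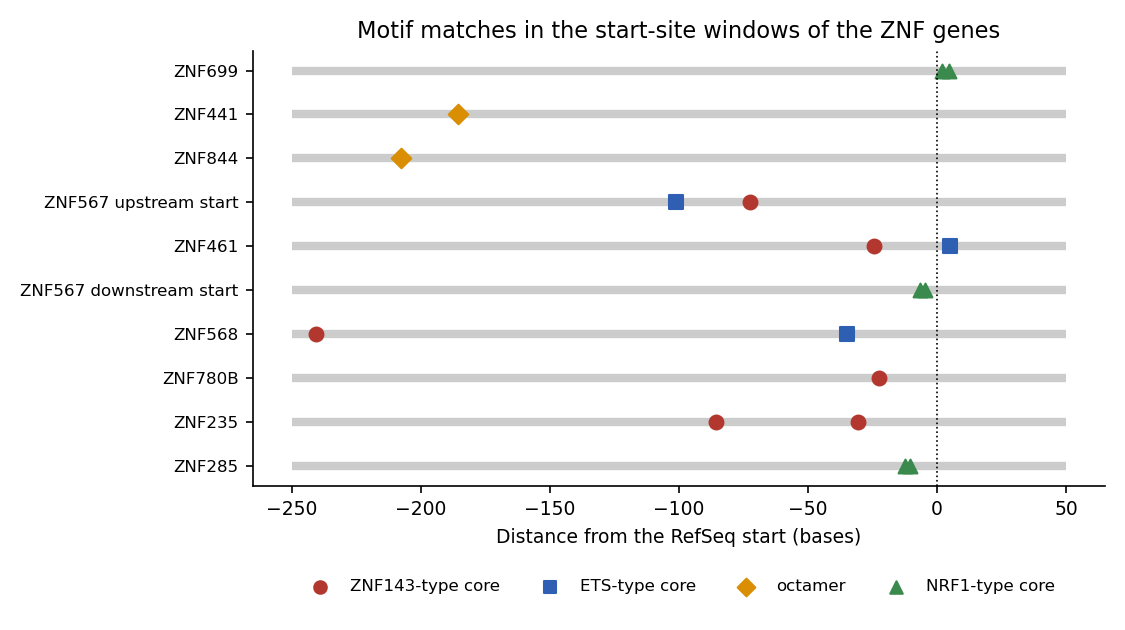
Each row is 1 RefSeq start-site window, with the distance from the annotated start in bases on the horizontal axis; symbols mark the centre of each match on either strand (ZNF143-type core, TTCCCAGA; ETS-type core, CCGGAAG; octamer, ATGCAAAT; NRF1-type core, GCATGCGC). The ZNF143-type core appears in 5 genes and the octamer in ZNF441 and ZNF844.

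On the arrays, the direct neighbours ZNF461 and ZNF567, and ZNF568, which lies beyond 4 other ZNF genes, were all brighter with the miR-138 mimic. ZNF461 was first described, as GIOT1, among gonadotropin-inducible transcription repressors of the rat ovary. Its log2 signal was 6.91 with the miR-138 mimic and 5.22 with the NC mimic, a difference of 1.69 (3.23-fold), the largest among the 10 genes in the positive direction and rank 22 among the 104 brighter clusters of the table. ZNF567, a KRAB zinc finger gene, had 7.40 with the miR-138 mimic and 6.26 with the NC mimic, a difference of 1.14 (2.20-fold). The 2 genes that share the 96-base interval printed above thus had differences of 1.69 and 1.14. ZNF568, whose mouse counterpart Zfp568 represses a placental transcript of Igf2, had 7.41 with the miR-138 mimic and 6.37 with the NC mimic, a difference of 1.04 (2.06-fold).

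ZNF441 and ZNF844, the KRAB zinc finger genes with the octamer, lay at different places in the range. ZNF844 had 8.16 with the miR-138 mimic and 6.59 with the NC mimic, a difference of 1.57 (2.97-fold). ZNF441 had 6.06 with the miR-138 mimic and 5.05 with the NC mimic, a difference of 1.01 (2.01-fold). ZNF441 is the member closest to the limit of the table, followed by ZNF568 at 1.04. No cluster just under the limit can be set beside them, since the table stops at 1.0. ZNF699, also known by the name of the fly gene hangover, had 6.85 with the miR-138 mimic and 5.52 with the NC mimic, a difference of 1.33 (2.51-fold).

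The remaining chromosome 19 members were also brighter with the miR-138 mimic. ZNF235, also named ZFP93, had 6.93 with the miR-138 mimic and 5.42 with the NC mimic, a difference of 1.51 (2.85-fold). Its near neighbour ZNF285 had 5.91 with the miR-138 mimic and 4.80 with the NC mimic, a difference of 1.11 (2.16-fold). A further cluster, annotated to both ZNF112 and ZNF285 and so not counted as a member, had 5.45 with the miR-138 mimic and 4.23 with the NC mimic, a difference of 1.22. ZNF780B, a KRAB zinc finger gene next to ZNF780A, had 6.43 with the miR-138 mimic and 5.34 with the NC mimic, a difference of 1.09 (2.13-fold). Across the 9 chromosome 19 genes, signals were 5.91 to 8.16 (median 6.91) on the miR-138 array and 4.80 to 6.59 (median 5.42) on the NC array, ranges that overlap because the genes differ in brightness.

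ZNF831 had the opposite direction. Its log2 signal was 6.32 with the miR-138 mimic and 8.0 with the NC mimic, a difference of -1.68 (3.20-fold), rank 20 by size among the 139 dimmer clusters. On the NC array it was brighter than each of the other 9, and on the miR-138 array it lay within their range. It was the only member coded to chromosome 20, where 2 of the 4 other named clusters were brighter and 2 dimmer with the miR-138 mimic.

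**Figure D2:**
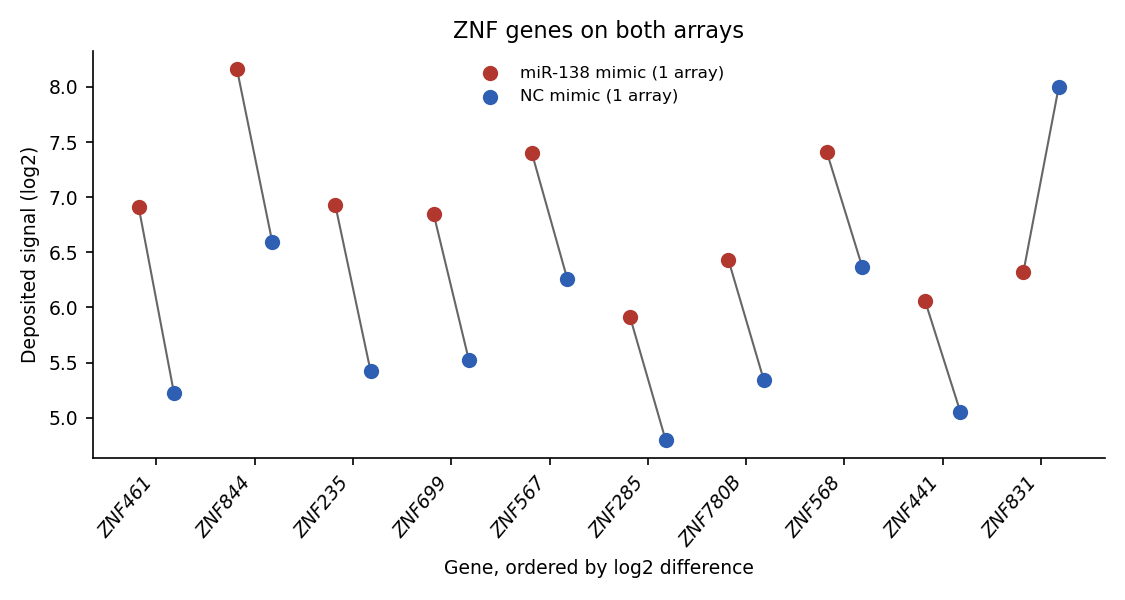
Deposited log2 signal (vertical axis) of the 10 ZNF genes on the miR-138 mimic array (left point of each gene) and the NC mimic array (right point), 1 array each, with a line joining the 2 values. In 9 genes the miR-138 point is the higher one; ZNF831 had 6.32 with the miR-138 mimic and 8.0 with the NC mimic.

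Set beside the table, 9 of the 10 genes were brighter with the miR-138 mimic, where 42.8% of all clusters were (104 of 243), and 1 was dimmer, where 57.2% were (139 of 243). A difference of at least 1.5 was reached by 3 members in the positive direction, ZNF461, ZNF844 and ZNF235, and by 12.3% of all clusters (30 of 243). These were 3 of the 9 brighter members and 30 of the 104 brighter clusters. In the negative direction ZNF831 reached that size, and so did 30 of the 139 dimmer clusters. The median difference of the 10 members was 1.13, against -1.05 for the table. No cluster differs by less than 1.0 in size, so each of these medians mainly shows which direction was more common. Within the brighter clusters the sizes of the differences were alike: the median was 1.14 for the 9 chromosome 19 members and 1.23 for all 104 brighter clusters, and 5 of the 9, against 47 of the 104, lay under 1.2. The members and the table were both chosen by these same differences, so the counts are a description and support nothing about the genes.

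Brightness moved with direction over the whole table. Among the dimmest 25% of the clusters by mean signal 57.4% were brighter with the miR-138 mimic, and among the brightest 25% of them 29.5% were. Of the members, 6 lay in the dimmest 25%, and all 6 were brighter with the miR-138 mimic, against 28 of the 54 clusters without a ZNF gene there. Among 101 clusters without a ZNF gene whose mean signal lay in the range of the 9 chromosome 19 members, 50 were brighter (49.5%). Among 54 whose NC signal lay in those members' range, 44 were brighter (81.5%). The NC signal is itself part of the difference, so this last share is raised by construction. The part of low signal in the members' direction was not tested.

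**Figure D3:**
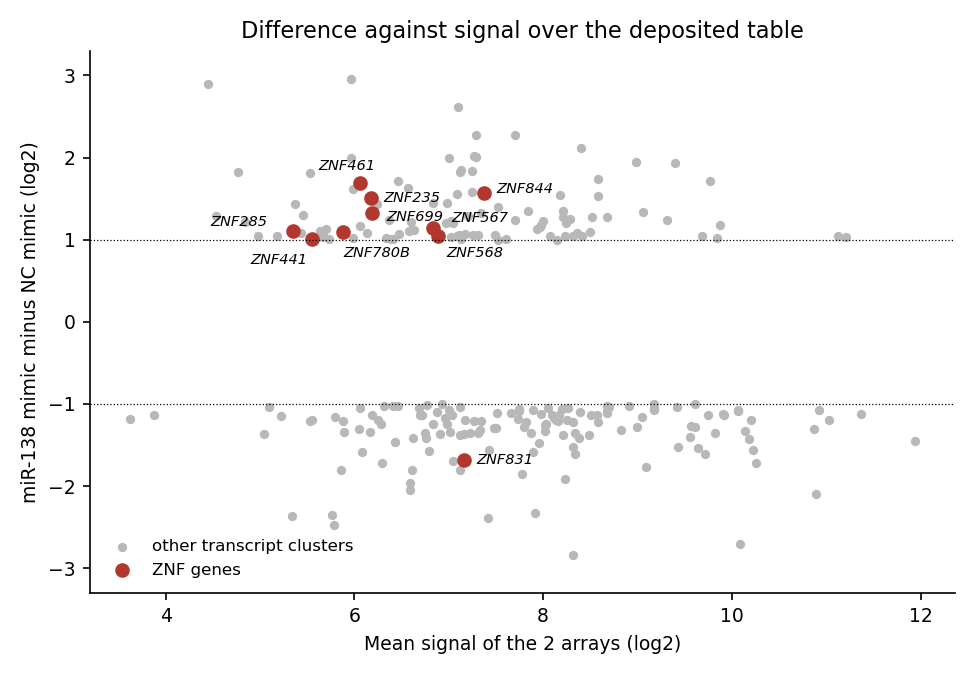
Log2 difference, miR-138 mimic minus NC mimic (vertical axis), against the mean log2 signal of the 2 arrays (horizontal axis) for the transcript clusters of the table, with the 10 ZNF genes in red and the limits of 1 and -1 dotted; a single cluster at 7.94 lies outside the plotted range. The 9 chromosome 19 genes lie between 1.01 and 1.69 and mostly on the dim side, and ZNF831 lies at -1.68.

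The other genes of chromosome 19 in the table did not share a direction. Of 7 clusters without a ZNF gene, 3 were brighter with the miR-138 mimic, GADD45B, DMKN and SERTAD1, and 4 were dimmer. The brighter share, 42.9%, was near that of the whole table, 42.8%. One of the 4, HMG20B, encodes a subunit of a histone demethylase complex and differed by -1.0 (8.67 with the miR-138 mimic and 9.67 with the NC mimic). In the RefSeq order GADD45B (1.02), MFSD12 (-1.40) and HMG20B come before the first member, ZNF699. PRDX2 (-1.30), CASP14 (-1.21) and DMKN (1.15) are between ZNF844 and ZNF461, and SERTAD1 (1.27) is between ZNF780B and ZNF235. All 7 had a higher NC signal, 6.48 to 11.52, than 8 of the 9 members. The exception was ZNF844, whose 6.59 lay above the 6.48 of CASP14.

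**Figure D4:**
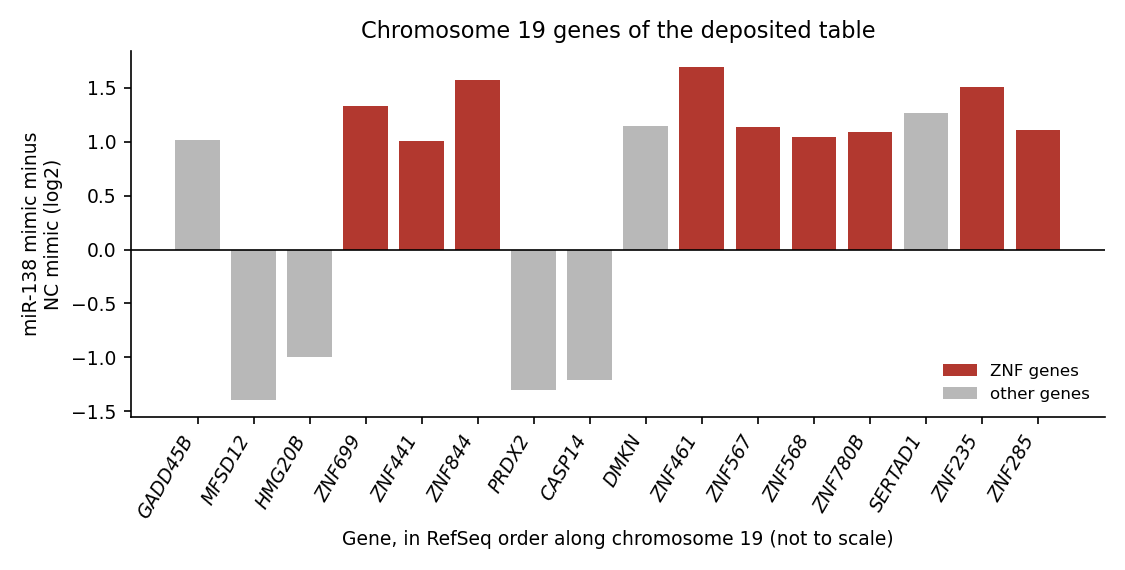
Log2 difference, miR-138 mimic minus NC mimic (vertical axis, bars from 0), of the 16 chromosome 19 clusters with 1 gene, in RefSeq order along the chromosome and not to scale. The 9 ZNF genes (red) are all above 0, and the 7 other genes (grey) lie on both sides.

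Partners and relatives of these genes were sparse in the table. Of 19 listed genes of the KRAB corepressor pathway, among them TRIM28 and SETDB1, none was in the table, and they were not analysed here. Of zinc finger genes with other symbols, searched by 44 symbol patterns, EGR1 and KLF7 were in the table and both were brighter. EGR1, an immediate early activator, differed by 2.02 and KLF7, a Krüppel-like factor, by 1.04. The same patterns caught SP100 (1.09) and SP110 (1.06), nuclear body genes that are not zinc finger factors of the Sp family.

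By the pair of signals on the 2 arrays, the members most like each other were ZNF567 and ZNF568, 0.11 apart on the log2 scale, then ZNF699 and ZNF235, 0.13 apart, and ZNF461 with ZNF235, 0.20 apart. ZNF831 was 1.96 from its nearest member, ZNF568. These distances rest on 1 array per mimic and on different probes, and they do not compare transcript amounts between genes.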

How the data were processed

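The values that the authors deposited are log2 signals, rounded to 2 decimals, in a column for each array. The submitters' processing notes name Affymetrix Expression Console. Its version, the steps of summarisation and normalization, and any filter were not given in the sources used here. As to the base, it was read from the values, whose maximum is 14.07. Since no difference in the table is smaller than 1.0, it is a list limited by fold and not a whole array.

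Genes were taken from the platform annotation (220 clusters with 1 symbol, 10 with several, 13 unnamed here). All 10 members matched the RefSeq table (GRCh38.p14) by gene ID with the same symbol. The feature IDs name no build, so array coordinates are not given. Differences are miR-138 minus NC. A single array per group allows no model, and precision is limited by the number of arrays. Counting was tested on simulated data. The naming rule covered all members, ZNF features with several genes, other genes on the members' chromosomes and the listed partner and relative genes. The members and lists were chosen with earlier results of these data known. A planned count of zinc fingers per protein was not run, as no protein sequences were used here. Python 3.11.15, NumPy 2.4.6, pandas 2.3.3 and Matplotlib 3.10.9 were used.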

Additional observations from a re-analysis of the deposited data

Results flagged for a closer look

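The transcript cluster annotated to both ZNF112 and ZNF285 was left out of the member counts, and it had a signal above the NC array there: 5.45 with the miR-138 mimic and 4.23 with the NC mimic, a log2 difference of 1.22. ZNF285's own cluster differed by 1.11 in the same direction. Which of the 2 genes the shared cluster detected was not tested.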

How the results depend on the processing

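The count of 9 members brighter and 1 dimmer was the same after both arrays were centred on their own medians, which added 0.06 to every difference and could turn no direction. It became 10 and 1 with the cluster of ZNF112 and ZNF285. Leaving out the dimmest 25% of the table left 3 brighter members and 1 dimmer. A limit of 1.5 also left 3 brighter and 1 dimmer. Both settings keep fewer genes by construction, and both change the share of the table too. At the limit of 1.5 the whole table, members included, had 30 brighter and 30 dimmer clusters. In its other bands of 25% by mean signal, from dim to bright, 47.5%, 36.7% and 29.5% of the clusters were brighter. The 42.8% of the whole table is therefore not the share to set beside these counts. The median difference, 1.13 as deposited, was 1.19 after centring, 1.09 without the dimmest 25%, 1.14 with the cluster of several genes and 1.14 without ZNF831, a setting added after the data were seen. The mean was 0.98. No paired analysis was possible because each group has a single array, and for that reason no replicate could be left out.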
